A study of Mus musculus with 24 samples.

Results

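The Id genes and the BMP signalling genes described here are Id1, Id2, Id3, Id4, Bmp4, Bmp7, Bmpr1a, Smad1, Smad6 and Smad7, 10 of the 25135 genes listed, matched by gene symbol at both ages. They were selected on the P1 comparison, starting from Id3, whose FPKM at postnatal day 1 (P1) was lower in Kdm6b-cKO than in wild type (WT), so the P1 values of these genes are given as a description with no test, and tests are given at postnatal day 30 (P30). RNA was sequenced from nuclei sorted from mouse cortex, in 6 WT and 6 Kdm6b-cKO libraries at each age. All 4 groups carried a SUN1-GFP reporter of the nuclear envelope that Cre recombinase from Emx1-Cre switches on, on a C57BL/6 background. Kdm6b-cKO mice were Emx1-Cre with Kdm6b f/f, and the WT controls were littermates with Kdm6b wt/wt. Emx1 drives Cre in dorsal telencephalic progenitors, so the sort was aimed at nuclei of excitatory neurons, astrocytes and part of the oligodendrocytes. Other cells of these cortices keep Kdm6b, and marker RNA of other cell types was also present in the libraries. Kdm6b encodes a demethylase that removes methyl groups from histone H3 lysine 27.

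Bone morphogenetic proteins (BMPs) are secreted ligands that bind pairs of type I and type II serine/threonine kinase receptors on the cell surface. The receptors phosphorylate Smad1, Smad5 and Smad8, which enter the nucleus with Smad4 and switch on target genes, the Id genes foremost among them. Id proteins lack a DNA-binding region and pair with basic helix-loop-helix (bHLH) factors, which they keep off DNA. In the developing forebrain BMP signalling favours astrocytes over oligodendrocytes, and Id2 and Id4 hold back oligodendrocyte maturation. Smad6 and Smad7 are inhibitory Smads that BMP signalling induces and that dampen it.

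The promoters of Id2, Id3 and Id4 are shown because Id3 was lower, and Id2 and Id4 higher, in most Kdm6b-cKO libraries at P1. RefSeq promoter entries were matched for 7 of the 10 genes, and Id1, Bmp7 and Smad7 had none. Each line gives the 250 bases before the start, 5′ to 3′ on the strand of the gene, in build GRCm38.p6. Capitals mark GGCGCC, a run of letters found in GC-rich BMP response elements, and CAGAC or its other-strand form GTCTG, the letters of a Smad binding element. Neither motif overlaps the other in these windows.
Id2 promoter at chr12:25096093-25096342, minus strand: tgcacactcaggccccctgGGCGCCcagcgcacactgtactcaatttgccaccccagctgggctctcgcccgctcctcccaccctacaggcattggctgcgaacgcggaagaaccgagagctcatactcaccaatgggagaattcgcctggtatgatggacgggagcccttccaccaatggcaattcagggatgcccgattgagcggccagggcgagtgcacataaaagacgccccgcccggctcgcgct
Id3 promoter at chr4:136143572-136143821, plus strand: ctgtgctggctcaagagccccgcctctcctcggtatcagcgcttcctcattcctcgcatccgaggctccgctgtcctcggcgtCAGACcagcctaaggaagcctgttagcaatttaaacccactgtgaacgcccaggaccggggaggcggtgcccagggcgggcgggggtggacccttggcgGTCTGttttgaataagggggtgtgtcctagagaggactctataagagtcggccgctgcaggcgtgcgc
Id4 promoter at chr13:48260866-48261115, plus strand: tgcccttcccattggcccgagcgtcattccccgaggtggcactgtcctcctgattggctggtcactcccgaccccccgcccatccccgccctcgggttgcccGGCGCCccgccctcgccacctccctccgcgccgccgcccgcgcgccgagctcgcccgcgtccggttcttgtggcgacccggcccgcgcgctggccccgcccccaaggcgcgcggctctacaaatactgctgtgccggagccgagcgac
Id2 and Id4 each held GGCGCC 1 time, starting at -231 and -148 from the start, and Id3 did not. Id3 held CAGAC at -167 and GTCTG at -68, and Id2 and Id4 held neither form. Of the other 4 matched promoters, that of Bmpr1a held GGCGCC at -198, and those of Bmp4, Smad1 and Smad6 held neither motif. Over all 32851 promoter windows of this length, searched on both strands, 9.59% held GGCGCC and 42.2% held CAGAC. A match is a description of the letters and not of binding. GC content in these windows was 62.8% for Id2, 62.8% for Id3 and 75.6% for Id4.

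The tables hold FPKM, a fragment count corrected for transcript length and for the number of mapped fragments, which puts genes of different length on one scale. Values of low genes climb by whole reads, and the size of 1 read, with fragments of 200 bases assumed, gives an effective depth of 822000 to 3910000 reads in WT and 192000 to 2860000 in Kdm6b-cKO at P1, and 5130000 to 8320000 and 1940000 to 8060000 at P30. Kdm6b, the targeted gene, was at 24.9 to 51.0 FPKM in WT and 15.0 to 38.4 in Kdm6b-cKO at P1, and at 16.9 to 26.4 and 17.5 to 28.1 at P30. Its groups overlapped at both ages (limma log2 fold change -0.41, SE 0.29, adjusted p = 0.534, and 0.12, SE 0.17, adjusted p = 0.828). Values of the whole gene do not isolate the floxed exons, so they do not check the genotypes, which are those of the labels. The glutamatergic neuron markers summed to 364 to 630 FPKM in WT and 386 to 891 in Kdm6b-cKO at P1. GABAergic neuron markers, of a lineage that Emx1-Cre does not mark, summed to 440 to 842 and 556 to 1498 at P1, and to 32.7 to 389 and 145 to 318 at P30. At P1, 4 WT libraries (2 to 5) and Kdm6b-cKO library 5 had 397 to 794 olfactory receptor genes above 0, where the remaining libraries had 2 to 22. At P30, 45S precursor RNA (Rn45s) was over 1000 FPKM in 5 WT and 3 Kdm6b-cKO libraries. Libraries are numbered 0 to 5 in each group, and since the sources used here do not tie each to an animal, p-values measure the spread between these libraries.

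In WT at P1 Id2, Id3 and Id1 were the most highly expressed of the 10 genes, with Id2 first at 380.4 ± 95.5 FPKM (SD, n = 6). Id3 followed at 76.5 ± 21.3 (SD, n = 6) and Id1 at 48.7 ± 9.10 (SD, n = 6), and the ranges of these neighbours overlapped, although Id3 was above Id1 in 6 of 6 libraries. Smad1, a Smad that BMP receptors activate, came next at 20.6 ± 5.50 FPKM (SD, n = 6), above Id4 at 12.4 ± 1.40 (SD, n = 6) without overlap. Bmpr1a, Bmp4, Bmp7, Smad7 and Smad6 lay between 6.95 and 1.51 FPKM in that order, each range overlapping the next. At P30 Id2 was again first at 38.3 ± 17.2 FPKM (SD, n = 6), Id3 second at 18.2 ± 8.42 (SD, n = 6), and Smad6 last at 0.307 ± 0.216 (SD, n = 6). The WT mean was lower at P30 than at P1 for 9 genes, and Smad7 had 2.74 FPKM at P1 and 3.59 at P30. The ages were normalized separately, so these levels are set side by side and were not tested.

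Id3 at P1 was lower in Kdm6b-cKO, and its lowest values stood in the libraries with the fewest reads. Id3 (build mm9, chromosome 4, 135699412 to 135701670, plus strand) had 96.5, 102.6, 60.9, 59.8, 52.8 and 86.6 FPKM in WT libraries 0 to 5, and 7.91, 39.0, 40.5, 73.6, 65.8 and 7.06 FPKM in Kdm6b-cKO libraries 0 to 5. All 6 Kdm6b-cKO libraries lay under the WT median of 73.7 FPKM, 4 lay under the lowest WT library, and the groups overlapped. The limma log2 fold change was -1.43 (SE 0.54), a ratio of 0.372. Over all 16250 genes tested at P1 the log2 fold changes had a median of -0.25 (-0.02 after quantile normalization), and Id3 lay 1.17 below that median on the log2 scale.

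Kdm6b-cKO libraries 0 and 5 had 344000 and 192000 effective reads, and 2 and 1 reads stood behind their Id3 values. Exact Poisson 95% intervals, which cover counting error only, ran from 0.884 to 26.4 FPKM in library 0 and from 0.165 to 36.4 FPKM in library 5. Without these libraries the log2 fold change of Id3 was -0.49, and among libraries over 1000000 reads it was -0.45, so the size of the difference depended on them. Among libraries over 2000000 reads, Id3 was at 60.9 to 102.6 FPKM in 3 WT and 40.5 to 73.6 FPKM in 3 Kdm6b-cKO libraries. Between 800000 and 1300000 reads it was at 52.8 to 86.6 FPKM in 3 WT libraries and at 39.0 in the 1 Kdm6b-cKO library. Among libraries without olfactory receptor signal it was at 96.5 and 102.6 FPKM in 2 WT and 7.91 to 73.6 in 5 Kdm6b-cKO libraries, a log2 difference of -1.46. Kdm6b-cKO libraries 0 and 1 also had 45S RNA at 3423 and 3239 FPKM, where WT libraries reached at most 476 FPKM. The parts of depth and of 45S in the Id3 difference were not tested.

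**Figure D1:**
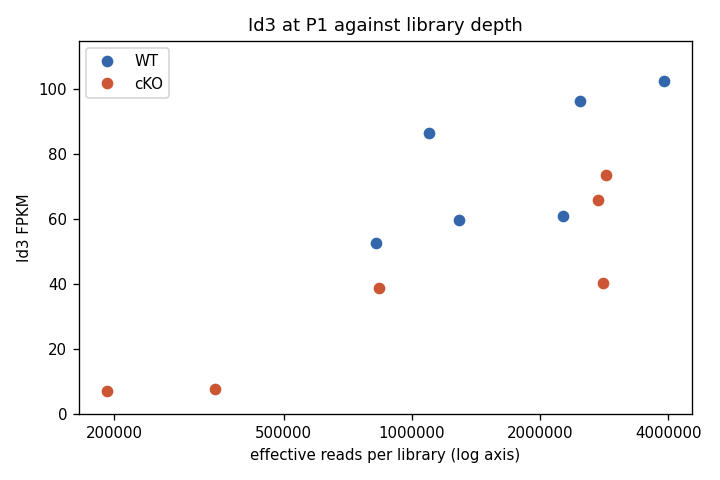
Id3 FPKM (vertical axis) in each P1 library against its effective reads (horizontal log axis), with WT in blue and Kdm6b-cKO in orange, 1 point per library. The 2 Kdm6b-cKO libraries under 400000 reads sit at 7.91 and 7.06 FPKM, and the other 4 lie between 39.0 and 73.6.

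Id2 and Id4, unlike Id3, were higher in most Kdm6b-cKO libraries at P1. Id2 (chromosome 12, 25778666 to 25780957, minus strand) was at 227.9 FPKM at the lowest, 386.5 at the median and 489.7 at the highest in WT, against 446.8, 851.4 and 1483 in Kdm6b-cKO. In 5 of 6 Kdm6b-cKO libraries Id2 lay above the highest WT library, and the remaining library, number 1, overlapped the WT range. Its log2 fold change was 1.14 (SE 0.33), and 0.47 after quantile normalization. Among libraries over 1000000 reads the groups of Id2 were apart, at 227.9 to 489.7 FPKM in 5 WT and 1059 to 1483 in 3 Kdm6b-cKO libraries, with a log2 difference of 1.70. This subset was chosen after seeing the data, and the share of all genes that were apart in it was not counted. Its WT libraries 2, 3 and 5 had olfactory receptor signal, while its 3 Kdm6b-cKO libraries did not. Among libraries without that signal the log2 difference of Id2 was 0.91, with overlap.

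Id4 (chromosome 13, 48356796 to 48359405, plus strand) was at 10.7, 12.4 and 14.3 FPKM (lowest, median and highest) in WT and at 7.70, 22.0 and 27.9 FPKM in Kdm6b-cKO. Its WT libraries lay close together, while 4 Kdm6b-cKO libraries were above and 1 was below all of them (log2 fold change 0.53, SE 0.31). Among libraries over 1000000 reads the log2 difference of Id4 was 0.01. Id1 (chromosome 2, 152561987 to 152563146, plus strand), the best known immediate target of BMP Smads, was at 36.1, 49.8 and 59.8 FPKM in WT and at 0, 49.6 and 72.0 FPKM in Kdm6b-cKO. Its log2 fold change of -1.47 (SE 1.25) rested on Kdm6b-cKO library 5, listed at 0, and was 0.01 without that library. With 0 reads, library 5 allows up to 3 reads, 21.4 FPKM.

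**Figure D2:**
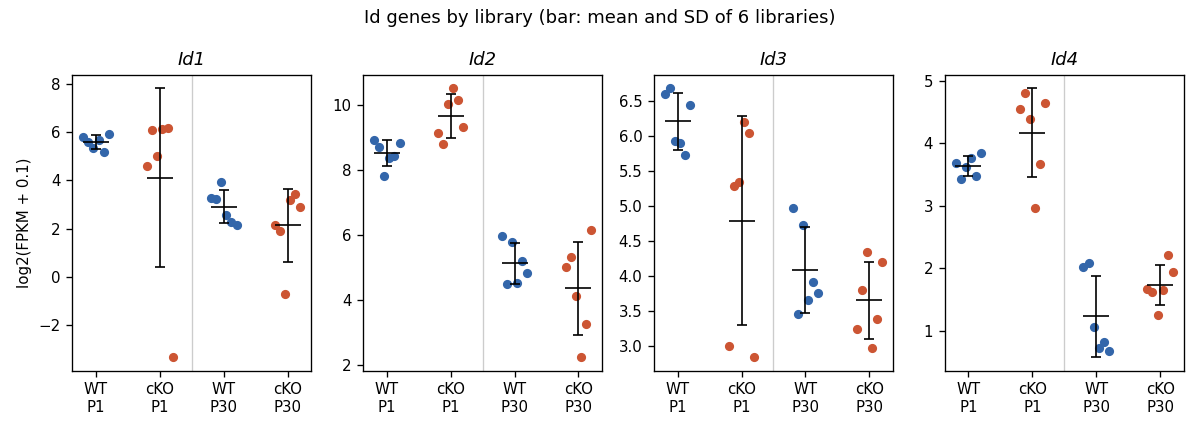
Log2(FPKM + 0.1) of Id1 to Id4 (vertical axes) in each library of the 4 groups, 1 point per library, with the mean and SD of 6 libraries as bars. At P1 the Id2 points of Kdm6b-cKO lie mostly above WT and those of Id3 mostly below, while the groups overlap for every gene at both ages.

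The balance of Id2 to Id3 within a library does not change when all genes of a library are scaled by 1 factor. Quantile normalization is not such a scaling. The balance was looked at after the values were seen. At P1 the ratio of Id2 FPKM to Id3 FPKM was between 3.74 and 6.61 in WT and between 11.5 and 91.2 in Kdm6b-cKO, with no overlap. The 2 highest Kdm6b-cKO ratios, 72.0 and 91.2, came from libraries 0 and 5 with their 2 and 1 Id3 reads, and the other 4 lay at 11.5, 26.2, 20.1 and 17.3. Id2 made up 66.8 to 77.8% of the summed FPKM of the 4 Id genes in WT and 76.9 to 95.3% in Kdm6b-cKO, and Id3 made up 11.8 to 17.9% and 1.04 to 6.71%. The ratio shows an unequal difference of the 2 genes and not which of them differed. Its denominator, Id3, started the selection of these genes at P1, so the P1 ratio is a description and was not tested. How many other pairs of genes are apart in this way was not counted.

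Of the BMP ligands, Bmp4 (chromosome 14, 47003195 to 47010344, minus strand) was at 2.39, 4.40 and 7.39 FPKM at P1 in WT and 1.39, 2.88 and 5.48 FPKM in Kdm6b-cKO (log2 fold change -0.66, SE 0.44). Bmp7 (chromosome 2, 172693513 to 172765822, minus strand) was at 2.80, 3.27 and 4.09 FPKM in WT and 2.01, 4.55 and 6.54 FPKM in Kdm6b-cKO (0.33, SE 0.37). Both ligands overlapped between the genotypes, and 1 to 3 reads stood behind some Kdm6b-cKO values. Bmpr1a (chromosome 14, 35223920 to 35316527, minus strand), a type I BMP receptor, had 3 Kdm6b-cKO libraries under and 2 over the WT range of 4.64 to 10.3 FPKM (-0.06, SE 0.40). Smad1 (chromosome 8, 81862294 to 81923417, minus strand) was at 14.9 to 29.4 FPKM in WT and 12.4 to 23.9 in Kdm6b-cKO (-0.25, SE 0.25), within 0.01 of the median of all genes.

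The inhibitory Smads had low counts at P1. Smad6 (chromosome 9, 63800953 to 63869866, minus strand) rested on 3 to 9 reads in WT and 0 to 8 in Kdm6b-cKO, with 0.461 to 3.95 FPKM and 0 to 1.88 FPKM (log2 fold change -0.78, SE 0.81). The library at 0 allows up to 1.33 FPKM. Smad7 (chromosome 18, 75527183 to 75555589, plus strand) was at 1.93 to 4.86 FPKM in WT and 1.13 to 11.0 in Kdm6b-cKO (0.49, SE 0.51), and its highest value came from library 5 with 7 reads. Taking all 10 genes at P1, 6 had a log2 fold change below 0 and 4 above, with a median of -0.15 beside -0.25 over all genes tested. The groups did not overlap for 0 of the 10 genes, and over all genes tested for 0.683% lower and 0.603% higher in Kdm6b-cKO. No gene of the 16250 was called by limma at P1 (an adjusted p under 0.05 and more than 2-fold, 0.0% of genes in each direction), while an unadjusted p under 0.05 was reached by 1263 lower genes (7.77%) and by 1089 higher genes (6.7%). A gene not called is not shown to be unchanged.

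Markers of other cell states are given beside these P1 values, an age at which limma called no gene at all. Over all genes tested, 63.2% had a log2 fold change below 0 and 36.8% above. Of the 8 cortical progenitor markers, 7 had a log2 fold change above 0, with overlapping sums of 882 to 1774 FPKM in WT and 1534 to 3848 in Kdm6b-cKO. The 5 genes listed as oligodendrocyte precursor markers, Sox10 among them, all had log2 fold changes below 0. They summed to 30.7 to 50.6 FPKM in WT and 18.8 to 30.6 in Kdm6b-cKO. Of the 10 astrocyte markers 8 were below 0, and their sums overlapped at 198 to 302 FPKM and 114 to 362 FPKM. All 7 mural markers tested were below 0, with overlapping sums of median 79.75 FPKM in WT and 47.87 in Kdm6b-cKO. Of 9 endothelial markers tested 4 were below 0, with overlapping sums of median 210.04 and 242.44 FPKM. In Kdm6b-cKO the mural sum was lowest in library 5 (27.67 FPKM), where Id3 was also lowest. Libraries 3 and 4 had the highest of both. In WT the mural sum was lowest in library 1 (50.4 FPKM), where Id3 was highest. No marker of these lists was at 0 in all libraries. Their part in the values of the Id genes was not tested, and in sorted bulk nuclei fewer cells of a type and less RNA per cell cannot be told apart.

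At P30 none of the 9 genes tested was called, and Bmp7 had the largest difference of the 9. By limma, 0 of 9 were called lower (0.226% of the 13289 genes tested) or higher (0.0527%). At an unadjusted p under 0.05, Bmp7 alone was higher (5.34% of all genes) and 0 were lower (7.37%). The groups overlapped for all 9 genes, while over all genes tested 1.05% were lower and 0.888% higher without overlap. The median log2 fold change was -0.01 over the 9 genes and -0.05 over all genes.

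**Figure D3:**
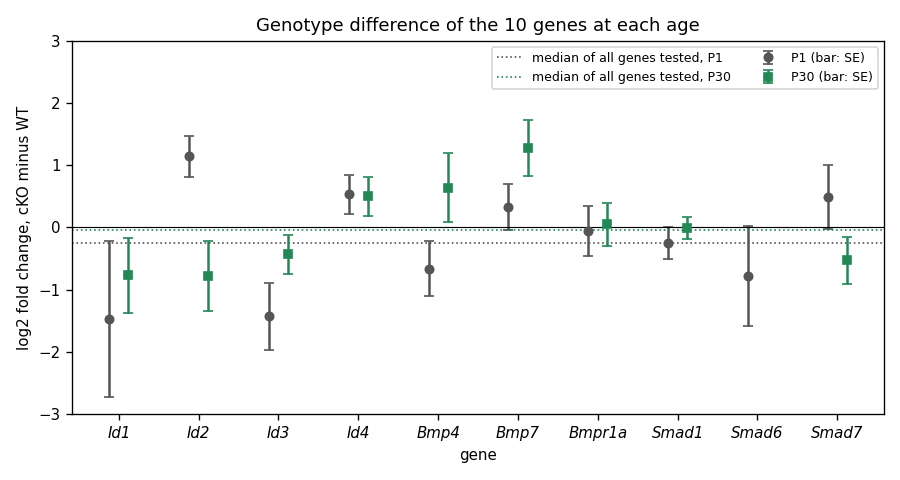
Log2 fold change of Kdm6b-cKO over WT (vertical axis) for each gene (horizontal axis) at P1 (grey circles) and P30 (green squares), with bars for the SE and dotted lines for the median of all genes tested at each age. Id2 stands at 1.14 at P1 and -0.78 at P30, Id3 at -1.43 and -0.43, and Bmp7 at 0.33 and 1.27, and Smad6 has no P30 point because its mean is under 1 FPKM.

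Bmp7, a ligand made in the cortical hem, meninges and choroid plexus, was at 1.54, 1.05, 0.716, 0.168, 0.587 and 0.760 FPKM in WT libraries 0 to 5 at P30 and at 2.60, 1.18, 1.73, 1.76, 2.67 and 1.40 FPKM in Kdm6b-cKO. All 6 Kdm6b-cKO libraries were above the WT median and 4 of 6 above the highest WT library. The log2 fold change was 1.27 (SE 0.45), and the adjusted p over all genes was 0.254. An exact permutation test of Bmp7 alone, two-sided and unadjusted, gave p = 0.00649, where 0.00216 is the smallest it can give. Over the alternatives that did not leave out a library the log2 fold change was 0.69 to 1.63 with adjusted p from 0.0425 to 0.317, the lowest with array weights, under which 3.99% of all genes were called. These values rest on 3 to 42 reads per library in WT and 16 to 62 in Kdm6b-cKO. Within the libraries of high 45S the genotypes were apart, at 0.168 to 1.05 FPKM in 5 WT and 1.73 to 2.67 in 3 Kdm6b-cKO libraries (exact permutation p = 0.0179, the smallest this design can give). Of all genes tested, 10.5% were higher and 9.64% lower without overlap in this subset, so such a separation was common there. Its genotypes also differed in depth, 5130000 to 8320000 effective reads in WT and 1940000 to 2660000 in Kdm6b-cKO, and in 45S, at most 4027 FPKM in WT and up to 25878 in Kdm6b-cKO, which cannot be told apart from genotype. In the low 45S libraries the single WT value was 1.54 FPKM and the 3 Kdm6b-cKO values were 1.18 to 2.60, where no p under 0.25 is possible.

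Id3 at P30 was at 10.9, 14.2 and 31.2 FPKM in WT and at 7.69, 12.1 and 20.1 FPKM in Kdm6b-cKO. The groups overlapped, with 3 Kdm6b-cKO libraries under the lowest WT library (log2 fold change -0.43, SE 0.31, limma adjusted p = 0.608, exact permutation p = 0.232). The 95% interval of this difference ran from -1.09 to 0.24. Id1 was at 4.32, 7.62 and 15.2 FPKM in WT and 0.515, 5.81 and 10.6 FPKM in Kdm6b-cKO (-0.77, SE 0.60, limma adjusted p = 0.640), where the lowest value rested on 1 read. Id4 was at 1.49, 1.82 and 4.14 FPKM in WT and 2.29, 3.07 and 4.51 FPKM in Kdm6b-cKO (0.50, SE 0.31, limma adjusted p = 0.545). All 6 Kdm6b-cKO values of Id4 were above the WT median, and WT libraries 0 and 1 overlapped them. Whether the genotype difference of any Id gene differed between the ages was not tested.

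Id2 at P30 divided the Kdm6b-cKO libraries. It was at 63.3, 22.6, 55.0, 23.2, 36.9 and 28.5 FPKM in WT libraries 0 to 5 and at 32.6, 40.3, 17.6, 4.67, 9.66 and 71.5 FPKM in Kdm6b-cKO. Kdm6b-cKO libraries 2, 3 and 4 were below every WT library, and the other 3 were within the WT range or above it. Over all libraries the log2 fold change was -0.78 (SE 0.56, limma adjusted p = 0.607, exact permutation p = 0.262). The 3 low libraries were those of Kdm6b-cKO with 45S over 1000 FPKM and with the fewest reads, 1940000 to 2660000, and their Id2 values rest on 50, 13 and 20 reads.

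Within the high 45S libraries Id2 was at 22.6 to 55.0 FPKM in 5 WT and 4.67 to 17.6 in 3 Kdm6b-cKO libraries (log2 difference -1.75, exact permutation p = 0.0179, the smallest possible), where 9.64% of all genes were lower without overlap. With 45S as a term in the limma fit the log2 fold change was -1.38 (adjusted p = 0.0347), while over the alternatives that did not leave out a library it ran from -1.75 to 0.04 with adjusted p from 0.0347 to 0.952. With the 45S term 4.14% of all genes were called. In the low 45S libraries Id2 was at 63.3 FPKM in the WT library and 32.6 to 71.5 in the 3 Kdm6b-cKO libraries, a log2 difference of -0.48 that 1 WT library cannot test. In Kdm6b-cKO, 45S, depth and the level of Id2 divided the libraries alike and cannot be told apart.

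The ratio of Id2 to Id3 showed the same division. In WT at P30 it was between 1.85 and 2.47 in the 5 libraries of high 45S, and 2.03 in the library of low 45S. In Kdm6b-cKO it was 0.607 to 0.933 in the 3 libraries of high 45S and 2.93 to 3.91 in the 3 of low 45S, on either side of WT. The SD of the log2 ratio was 0.13 in WT and 1.18 in Kdm6b-cKO. The means of the log2 ratio differed by -0.35 (exact permutation p = 0.489).

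**Figure D4:**
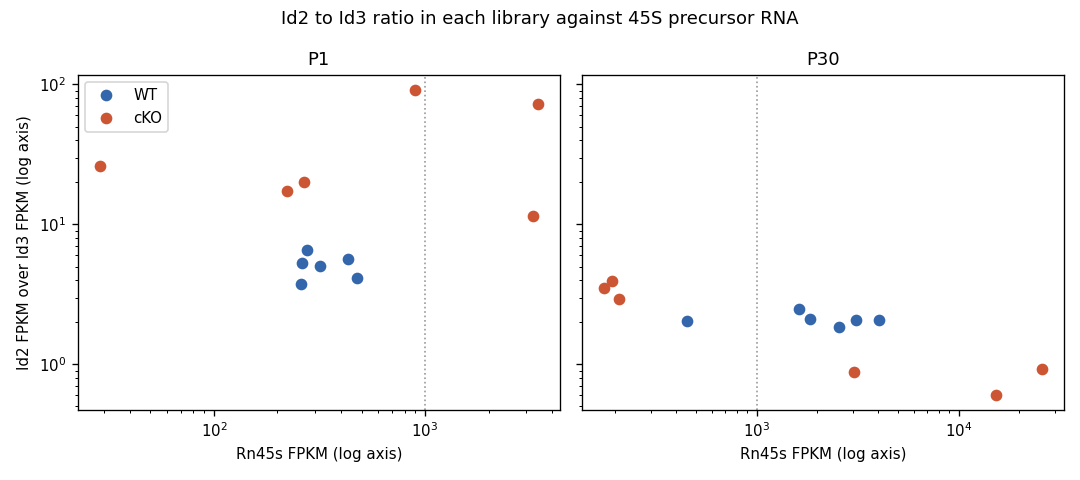
Ratio of Id2 FPKM to Id3 FPKM in each library (vertical log axis) against Rn45s FPKM (horizontal log axis) at P1 and P30, with WT in blue, Kdm6b-cKO in orange and a dotted line at 1000 FPKM. At P1, where Id3 started the selection and no test was made, every Kdm6b-cKO point (11.5 to 91.2) lies above WT (3.74 to 6.61). At P30 the Kdm6b-cKO points fall on both sides of the WT points (1.85 to 2.47).

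The remaining genes showed no difference at P30 that passed the test. Bmp4 was at 0.287, 0.842 and 3.49 FPKM in WT and 0.893, 1.40 and 3.47 FPKM in Kdm6b-cKO (log2 fold change 0.64, SE 0.55, limma adjusted p = 0.672). Bmpr1a was at 1.18 to 2.67 FPKM in WT and 0.876 to 3.80 in Kdm6b-cKO (0.05, limma adjusted p = 0.969), and the 95% interval of its difference, -0.70 to 0.80, leaves room for changes of either sign. Smad1 had the narrowest interval, -0.39 to 0.37, around a log2 fold change of -0.01 (limma adjusted p = 0.982), with 5.39 to 10.4 FPKM in WT and 6.05 to 8.48 in Kdm6b-cKO. Smad7 was at 2.61 to 5.28 FPKM in WT and 0.883 to 4.37 in Kdm6b-cKO (-0.53, SE 0.38, limma adjusted p = 0.602). Smad6 did not pass the minimum mean of 1 FPKM. It was at 0.0866 to 0.633 FPKM in WT and 0 to 0.493 in Kdm6b-cKO (exact permutation p = 0.0996), on 0 to 9 reads, and the 2 libraries at 0 allow up to 0.417 and 0.573 FPKM.

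**Figure D5:**
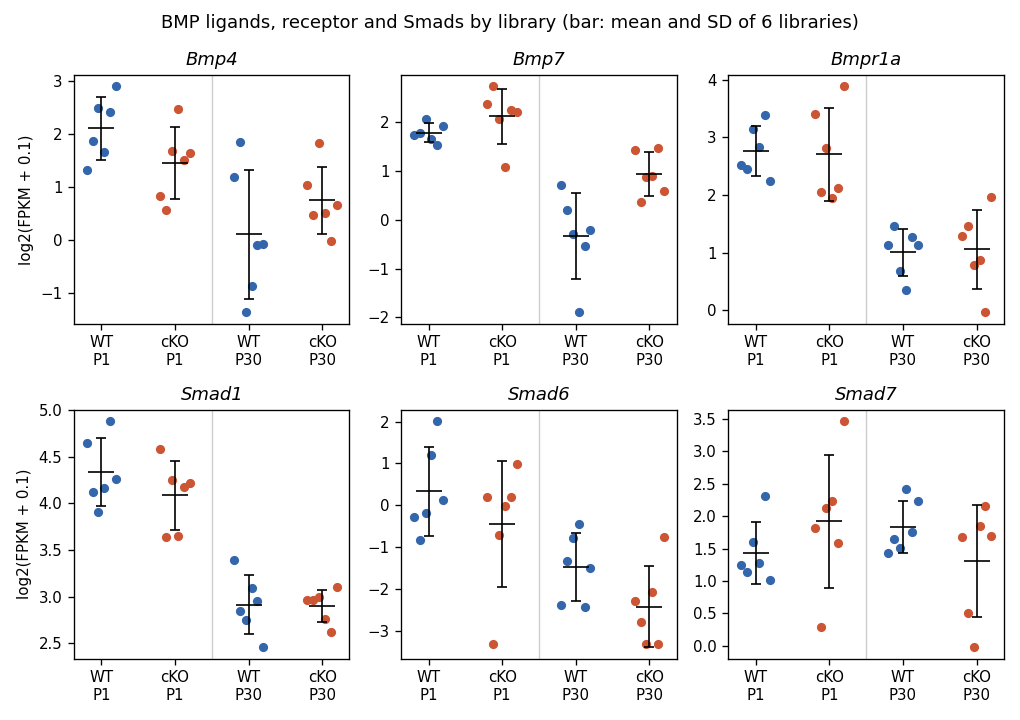
Log2(FPKM + 0.1) of Bmp4, Bmp7, Bmpr1a, Smad1, Smad6 and Smad7 (vertical axes) in each library of the 4 groups, 1 point per library, with the mean and SD of 6 libraries as bars. Bmp7 at P30 is the panel with least overlap, where 4 of 6 Kdm6b-cKO libraries lie above all WT libraries.

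Markers are given beside the P30 values too, where 54.8% of all genes tested had a log2 fold change below 0 and 45.2% above. All 7 mature oligodendrocyte markers had log2 fold changes below 0 and 2, Mbp and Mag, were called (-1.27 and -1.59, limma adjusted p = 0.0204 and 0.00538), with sums of 259 to 494 FPKM in WT and 134 to 195 in Kdm6b-cKO. All 5 genes listed as oligodendrocyte precursor markers were below 0 and 1, Sox10, was called (-1.46, limma adjusted p = 0.0204), with sums of 14.7 to 22.5 FPKM and 8.69 to 14.8. The paper describes Sox10 as a regulator of progression through the oligodendrocyte lineage, so it does not mark precursors alone. Of 5 microglia markers tested 4 were above 0 with none called, with overlapping sums of 12.2 to 33.9 FPKM and 19.1 to 44.9. All 7 GABAergic markers tested were above 0 with none called, and WT libraries 0 and 1 had sums of 389 and 288 FPKM against 32.7 to 94.98 in the other WT libraries. Those 2 WT libraries also had the highest Id4, Bmp4 and Bmp7 of their group. They had its highest sums of meningeal fibroblast (10.2 and 6.28 FPKM), endothelial (15.5 and 16.0 FPKM) and mural markers (16.9 and 13.0 FPKM). Choroid plexus markers did not follow, with sums of 18.4 and 3.21 FPKM in WT libraries 0 and 1 and 15.9 in WT library 4. The meningeal fibroblast markers summed to 0.903 to 10.2 FPKM in WT and 4.64 to 8.34 in Kdm6b-cKO, and the choroid plexus markers to 0.409 to 18.4 and 1.73 to 18.4. The part of these cell types in the values of Bmp7, Bmp4 and Id4 was not tested.

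Of 57 further genes of the pathway, in 6 lists, 34 could be tested at P30 and none was called by limma. At an unadjusted p under 0.05, 2 were lower (Smad5 and Rgma) and 1 was higher (Skil), and the median log2 fold change of the 34 was 0.10 beside -0.05 over all genes. None of the 10 other ligands reached a mean of 1 FPKM, the most abundant being Bmp2 at 0.610 FPKM in WT and 0.634 in Kdm6b-cKO and Bmp3 at 0.572 and 0.453. Among 11 secreted antagonists, which bind BMPs outside the cell, 7 were tested. Chrd (chordin) was the most abundant at 100.8 ± 17.4 FPKM in WT and 102.1 ± 13.1 in Kdm6b-cKO (SD, n = 6 each), with a log2 fold change of 0.03 (SE 0.16, limma adjusted p = 0.965), and Nbl1 followed at 10.8 and 12.2 FPKM.

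Among 10 other receptors and co-receptors, 7 were tested, and the type II receptors Acvr2a (8.46 and 12.9 FPKM, log2 fold change 0.51) and Acvr2b (7.31 and 8.43 FPKM, 0.18) were highest. Rgma, a BMP co-receptor, was at 1.56 FPKM in WT and 0.838 in Kdm6b-cKO (-0.92, SE 0.41, limma adjusted p = 0.375). Of 9 other Smads and their regulators 7 were tested. Smad5, which acts beside Smad1, was at 3.30 and 2.04 FPKM (-0.79, SE 0.35, limma adjusted p = 0.372), and Skil, a repressor of Smad complexes, at 4.30 and 8.20 FPKM (0.76, SE 0.35, limma adjusted p = 0.386). Ski (0.12) and the ubiquitin ligase Smurf1 (-0.24) were the most abundant of that list.

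Of 7 other BMP target genes 4 were tested, led by Hey1 (log2 fold change -0.36) and Hes1 (0.21). Of 10 bHLH partners and targets of Id proteins 9 were tested, led by Tcf4, which encodes an E protein that Id proteins bind, at 63.1 and 73.5 FPKM (0.22, SE 0.12, limma adjusted p = 0.489), and Neurod2, a neuronal bHLH factor, at 64.3 and 59.8 FPKM (-0.31, SE 0.44). At P1, 53 of the 57 genes passed the minimum mean, 41 had a log2 fold change below 0, and their median was -0.30 beside -0.25 over all genes. The groups were apart at P1 for 1 of the 53, Tob1, an inhibitor of BMP Smads that was higher in Kdm6b-cKO (0.77, SE 0.29) and was named after its values were seen. This share stands beside the 0.603% of all genes higher without overlap.

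Genes whose log2 levels followed Id3 most closely across the 12 libraries of an age, after the mean of each genotype was removed, were different ones at the 2 ages. At P1 they were Trpt1 (Pearson's r 0.975), Syngr2 (0.972), Prpf31 (0.967), Ltc4s (0.967) and Mlc1 (0.963), among 13645 genes. Over the same libraries r with Id3 was 0.73 for Id1, 0.63 for Id2, -0.61 for Id4 and -0.91 for Bmpr1a. At P30 they were Lgalsl (0.880), Nmral1 (0.877), Gfra1 (0.866), Pipox (0.864) and Stxbp2 (0.860), among 12945 genes, with 0.67 for Id2, 0.51 for Smad1, -0.20 for Id1 and -0.61 for Smad7. These are descriptions over 12 libraries that share depth differences. At P1 Id3 was lowest in Kdm6b-cKO libraries 0 and 5, at 7.91 and 7.06 FPKM on 2 and 1 reads, the libraries with the fewest reads. These 2 libraries also had the highest Bmpr1a of their group, 10.4 and 14.7 FPKM, and weigh heavily in the P1 values of r.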

How the data were processed

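From RNA of SUN1-GFP+ nuclei sorted from cortex, 24 libraries were prepared with the VAHTS Universal V10 kit. The paper names NovaSeq or Element AVITI sequencers and does not say which library was run on which. The authors used HISAT2 for alignment to mm9 and deposited FPKM values per gene and library from Cuffdiff, per the submitters' processing notes (versions not given in the sources used here). Cuffdiff also scales FPKM between libraries, at each age separately. The authors' own Cuffdiff comparisons (group FPKM values, log2 fold changes, test statistics, p and q values) were not used.

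Genotypes were compared within an age with limma 3.58.1 in R 4.3.3 (trend, two-sided, all 12 libraries) on log2(FPKM + 0.1), a scale that understates changes of low genes, among genes whose mean reached 1 FPKM, and p-values were adjusted by Benjamini-Hochberg over the whole table. Genes were called at an adjusted p under 0.05 with more than a 2-fold difference. Exact permutation tests, tables, motif searches and figures were made in Python 3.11.15 (scipy 1.17.1, numpy 2.4.6, pandas 2.3.3, matplotlib 3.10.9). Scripts were tested on simulated data with the spread of each age. Of genes changed by 1.5 on the log2 scale, 26.5% were called at P1 and 63% at P30. With a change of 3, 60% and 91% were called, so genes not called can still differ.

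The 10 genes, the lists and the tests were chosen with earlier results of these data known. The text names all 10 genes, the 2 most abundant genes of each pathway list at P30 and any called there, the 5 genes most like Id3 at each age, and Kdm6b. Rgma, Smad5, Skil and Tob1 were named after their values were seen. Gene coordinates are from GENCODE vM1 (mm9) and promoters from RefSeq (GRCm38.p6). No protein sequences were used here. Effective depth and reads behind a value assume fragments of 200 bases. Reads were given for genes whose low values fell near whole reads at a fitted length and, at its annotated length, for Id2. The mean distance from a whole read was up to 0.147, in Smad7, so these read counts are approximate. Reads are not independent molecules, so intervals and limits cover counting error only. Alternatives were pseudocounts of 1 and 0.01, no filter or a minimum mean of 5 FPKM, scaling by median of ratios, quantile normalization, no trend, robust fitting, array weights, 45S or olfactory signal as a term or a subset, and leaving out each library. Subsets by depth at P1 and ratios of arithmetic means were added after seeing the data.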

Additional observations from a re-analysis of the deposited data

Results flagged for a closer look

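In 2 of the 40 groups of 6 libraries examined (10 genes, 2 genotypes, 2 ages), 1 library lay far from the others, where chance gives about 1 in 20. Id1 in Kdm6b-cKO library 5 at P1 was at 0 FPKM, its gap to the nearest library taking 0.836 of the range of the group on the log2 scale. Id1 in Kdm6b-cKO library 2 at P30 was at 0.515 FPKM, its gap taking 0.634 of the range. The first rests on 0 reads, and the second on 1 read with an exact Poisson 95% interval of 0.0130 to 2.87 FPKM.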

How the results depend on the processing

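No paired analysis was possible because the columns carry the numbers 0 to 5 while the labels number replicates 1 to 6, so no replicate block was run. Of the 10 genes, none was called at P30 in the analysis reported, and 1 was called with array weights (Bmp7), with a 45S term (Id2) and in the high 45S libraries alone (Id2), settings under which 3.99%, 4.14% and 5.71% of all genes were called, against 0.278% in the analysis reported. Of the other pathway genes 2 were called with array weights (Skil 1.31 and Neurod2 -1.07), beside the same 3.99% of all genes. Leaving out a library left both counts between 0 and 0. With array weights Id2 at P30 was at 0.04, and without library 3 of Kdm6b-cKO at -0.35. Bmpr1a at P30 turned to -0.19 with a 45S term and to -0.44 in the high 45S libraries, and ran from -0.13 to 0.27 when a library was left out. Smad1 at P30 turned to 0.03 after quantile normalization and to 0.14 with array weights, and ran from -0.11 to 0.08 when a library was left out. The cause was not tested. Id3 at P1 ran from -1.71 to -1.04 when a library was left out. It was -0.55 with array weights, -2.07 with an olfactory term and -0.49 without Kdm6b-cKO libraries 0 and 5. Its sign was the same under all alternatives run, but Id3 was selected for being lower in Kdm6b-cKO in these libraries. The kept sign is therefore a description and no test. Id1 at P1 ran from -1.89 to 0.01 when a library was left out and from -3.25 (olfactory term) to 0.26 (without Kdm6b-cKO libraries 0 and 5) over all alternatives run. Over the P30 alternatives with a test, 186 values of the 9 genes tested kept their direction and side of the threshold, 13 changed sign and 3 passed it. Depth limits the P1 values of the 2 Kdm6b-cKO libraries under 400000 reads.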
